A study of Mus musculus with 4 samples.

Results

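The receptors for fibroblast growth factors (FGFs) and the adaptor proteins that carry their signal were followed in mouse iMOP cells, a line of immortalized multipotent otic progenitors. The 10 genes are the receptors Fgfr1, Fgfr2 and Fgfr3, the receptor-like gene Fgfrl1, the docking genes Frs2 and Frs3, and the adaptor genes Shc1, Shc2, Shc3 and Grb2. They form a list of gene symbols that was chosen with earlier results of these data known. All 10 have a row among the 49997 genes of each count table. Ribosome-depleted total RNA was sequenced from 4 libraries of this wild-type line, 2 from proliferating cells and 2 from neurons made from them. The proliferating cells grew in DMEM/F12 medium with B27 supplement, carbenicillin and basic FGF (bFGF) at 20 ng/ml. The neurons were kept in Neurobasal medium with N21 supplement, L-glutamine and 1 µM K03861, an inhibitor of the cyclin-dependent kinase CDK2. No bFGF is listed for the neuron medium, so growth factor, medium, inhibitor and cell state differ together between the groups and cannot be told apart. All libraries come from 1 line, and nothing says whether replicates were separate differentiations, so a p-value measures only the spread between these libraries.

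FGFs bind receptor tyrosine kinases on the cell surface, and heparan sulfate steadies the complex. The paired receptors phosphorylate each other and the docking protein FRS2, which gathers GRB2, the GRB2 partner SOS and the phosphatase SHP2, and so switches on RAS and the MAP kinases. SHC proteins give receptor tyrosine kinases another way to recruit GRB2. In the inner ear, FGF signals take part in the induction of the otic placode and in the formation of the sensory epithelium, where Fgfr3 is a known gene of pillar cells. In the brain, Fgfr3 is a known gene of radial glia and astrocytes.

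The libraries held between 7446361 and 14484011 counted reads, but the 18S ribosomal RNA gene took between 53.34% and 76.1% of them. Without that row, 2595578 to 3850766 reads remained per library, so several of the 10 genes rest on few reads. Levels are given below as reads, as CPM, reads scaled by library size with the trimmed mean of M values (TMM), for comparing libraries, and as the deposited RPKM, reads scaled by gene length and library size, for comparing genes. The TMM factors ran from 0.6792 to 1.639, with both replicate 2 libraries at the low end. The markers fit the labels in part. Of 10 neuronal markers 9 were tested, 6 with a positive and 3 with a negative log2 fold change, and in 6 of them the replicate pairs had opposite signs. Elavl4 and Map2 were higher in both neuron libraries than in either proliferating library, Tubb3, Stmn2 and Syn1 had the negative values (-0.67, -1.13 and -0.30) with overlapping groups, and Nefm had 0 or 1 read in every library. Of 8 otic progenitor genes, Sox2, Sox9 and Nes were well detected, Sox9 with 496 and 429 reads in proliferating cells and 320 and 41 in neurons. Eya1 was higher in both neuron libraries, while Pax2 and Pax8 had 0 reads in all 4 libraries and Gata3 had 0 to 2. The summed CPM of 5 cell cycle genes was 294.4 and 47.2 in proliferating replicates 1 and 2. In neuron replicates 1 and 2 it was 374 and 203.8. Proliferating replicate 2 thus had the lowest value of the 4 and neuron replicate 1 the highest, both against their labels. In such bulk samples, fewer cells of a type and less RNA per cell cannot be told apart.

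Of the 8 genes tested, Fgfr3 had the largest fitted difference between the groups. Because it carries the main pattern below, 200 bases from 250 to 51 bases before its first RefSeq start are shown, with the GC boxes in capitals (GGGCGG or its reverse complement CCGCCC, the letters bound by SP1-type factors). They lie at chr5:33721474-33721673 on the plus strand of GRCm38.p6 and come from RefSeq.

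Fgfr3: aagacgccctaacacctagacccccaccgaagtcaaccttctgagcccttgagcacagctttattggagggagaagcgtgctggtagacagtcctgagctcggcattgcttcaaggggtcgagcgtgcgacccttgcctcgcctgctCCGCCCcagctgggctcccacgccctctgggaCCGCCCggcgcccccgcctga

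The stretch is 65% G or C, against a median of 51.5% over 32851 RefSeq windows of the same length at the same distance before gene starts. It holds 2 GC boxes and 1 CCAAT box (CCAAT or ATTGG), and no TATAAA and no CCGGAA, the core letters of ETS factor sites, on either strand. Of all windows, 24.6% hold a GC box, 28.4% a CCAAT box, 9.14% TATAAA and 8.03% CCGGAA. The 50 bases next to the start are not in this stretch. The whole 300-base window, which runs on to 50 bases after the start, holds 4 GC boxes and no TATAAA. These matches describe letters only. Windows were matched for 8 of the 10 genes, and 6 of those 8 had a GC box in the 200-base stretch of at least 1 window. Fgfr3, Grb2 and Shc1 had 2 windows each, so this count by gene is not on the same footing as the 24.6% by window.

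Fgfr3 (chr5:33721724-33737068) encodes a receptor whose over-activity restrains cartilage growth and whose loss disturbs the pillar cells of the organ of Corti. It had 109 and 193 reads in proliferating replicates 1 and 2, and 15 and 18 reads in neuron replicates 1 and 2. In CPM these are 8.93 and 26.1 against 1.26 and 1.83, or 17.5 ± 12.1 (SD, n = 2) against 1.54 ± 0.404 (SD, n = 2). The deposited RPKM was 0.507 and 0.644 against 0.0548 and 0.043. On both scales the neuron libraries lay below the proliferating libraries, although the proliferating libraries also differed from each other in CPM. In the replicate 1 pair the proliferating level was 7.10 times the neuron level, with a 95% counting interval of 4.12 to 13.1. In the replicate 2 pair it was 14.2 times, with an interval of 8.77 to 24.5. These intervals cover counting error only. The fitted log2 fold change, neurons over proliferating, was -3.49 (SE 0.70), with an edgeR quasi-likelihood adjusted p of 0.775 over 12783 genes. Fgfr3 therefore did not pass the threshold of 0.05, and neither did any other gene in the table (0%). With the replicate number as a block the log2 fold change was -3.33 (SE 0.55) and the adjusted p 0.124. The DESeq2 fit gave -3.52 with an adjusted p of 0.00179 and called Fgfr3 lower in neurons, where it called 0.308% of genes lower. Without the filter on low counts edgeR gave -3.44 with an adjusted p of 0.000237, where 0.472% of genes were called lower. Leaving out the library proliferating replicate 1 gave -4.10, from a fit with 1 library in that group. On the log2(RPKM + 0.1) scale the difference was -2.17 and on log2(RPKM + 1) -0.59, both with limma adjusted p of 1.00; pseudocounts of this size are large beside the RPKM of Fgfr3. The direction was thus the same in these fits, and the call depended on the tool and the filter.

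Other measurements were also lower in the neuron libraries. The summed CPM of 5 astrocyte and radial glia genes was 158.8 and 111.1 in proliferating replicates 1 and 2, and 67.9 and 17.7 in neuron replicates 1 and 2. In each group these sums were lower in replicate 2 than in replicate 1, while Fgfr3 CPM was higher. On the RPKM scale, Fgfr3 was lower in neuron replicate 2 (0.043) than in neuron replicate 1 (0.0548). The genes in the sum also differed from each other. In proliferating replicates 1 and 2, Fabp7 CPM was 22.3 and 48.9, and Slc1a3 CPM was 92.1 and 48.2. All 4 tested genes of this list had a negative log2 fold change. Both neuron libraries lay below both proliferating ones in 3 of the 4, against 14.5% of all tested genes. The other of the 4, Aqp4, had 356 and 2 reads in proliferating cells and 31 and 5 in neurons. Gfap, the astrocyte filament gene, had 181 and 89 reads in proliferating cells and 1 and 2 in neurons, and no gene of this list was at 0 in all libraries. Gfap passed the count filter only through its proliferating libraries, so a lower value in neurons was built into its test. Among glial lineage genes of other kinds, Olig2, an oligodendrocyte lineage factor, had 48 and 445 reads in proliferating cells and 10 and 5 in neurons, while Sox10 and Mbp had 0 to 2 reads in every library. The part of these markers in the Fgfr3 difference was not tested. GENCODE places 998 bases of Fgfr3 exon under an opposite-strand model, G630022F23Rik, which is not analysed here. Whether counting used strand is not stated, so reads of that model would be counted with Fgfr3 if it did not.

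**Figure D1:**
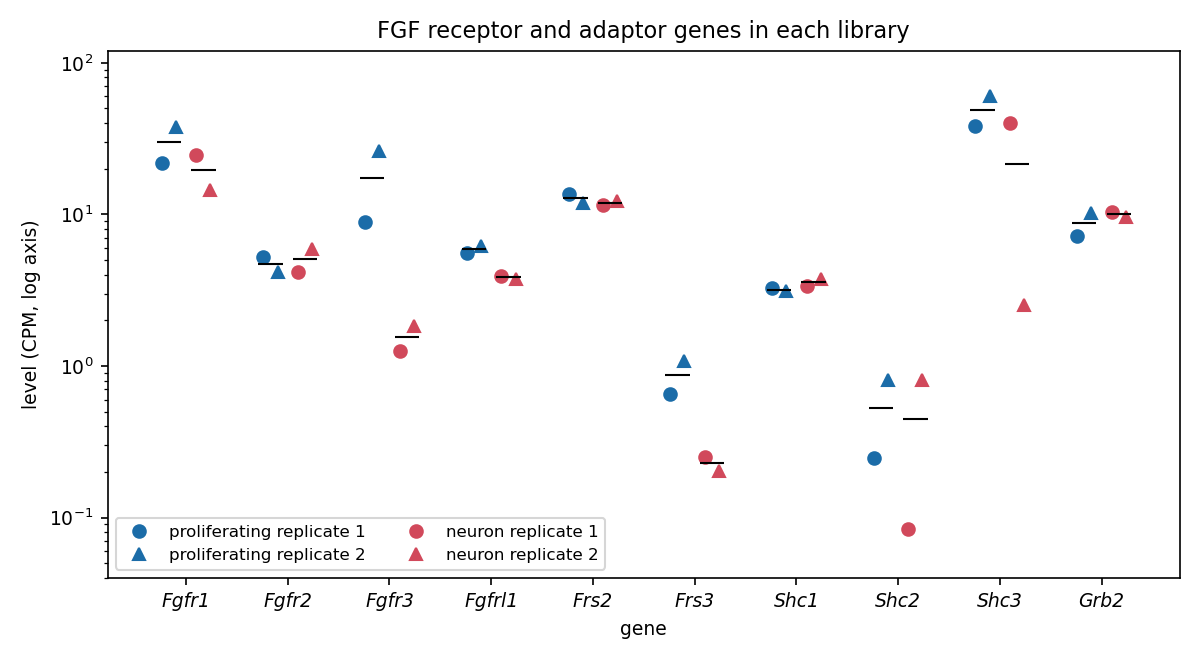
Level of each of the 10 genes in each library, in TMM-scaled CPM on a log axis. Blue marks are proliferating libraries, red marks neuron libraries, circles replicate 1, triangles replicate 2, and black lines group means. Fgfr3 is separated by group (8.93 and 26.1 against 1.26 and 1.83), while Shc3 has 3 libraries between 38.2 and 60.1 and neuron replicate 2 at 2.54.

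Fgfr1 (chr8:25518759-25575718), a receptor for bFGF that is widely expressed in progenitor cells, had the most reads of the receptors. Its counts were 268 and 281 in proliferating replicates 1 and 2, and 293 and 142 in neuron replicates 1 and 2. The CPM values of 22 and 37.9 against 24.6 and 14.4 overlap between the groups. The pairs went opposite ways. In the replicate 1 pair neurons stood at 1.12 times the proliferating level (counting interval 0.945 to 1.33), while proliferating cells of the replicate 2 pair stood at 2.63 times the neuron level (2.14 to 3.24). The fitted log2 fold change was -0.62 (SE 0.52), with an edgeR adjusted p of 1.00. The antisense model Gm16159 shares 164 bases with Fgfr1 exons and had 1 to 9 reads per library.

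Fgfr2 (chr7:130162451-130266808) encodes the receptor whose epithelial form serves FGF10 and FGF3 in otic vesicle growth. It had 64 and 31 reads in proliferating cells and 50 and 58 in neurons. Its CPM was 5.24 and 4.18 against 4.19 and 5.90, and the groups overlap. The fitted log2 fold change was 0.09 (SE 0.51) and became negative under total-count scaling and on the RPKM scale. Both pair ratios had counting intervals that span 1, namely 0.541 to 1.18 and 0.896 to 2.26. Gene counts do not separate the epithelial and mesenchymal splice forms of Fgfr1, Fgfr2 and Fgfr3, which differ in the ligands they bind. In GENCODE the Fgfr2 model runs on to base 133123350, far beyond the RefSeq coordinates given above. With that model, Ctbp2 on the same strand shares 314 exon bases with Fgfr2. Ctbp2 had 113 to 232 reads, and some reads could be assigned to either gene if counting used such a model.

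Fgfrl1 (chr5:108694229-108706950) encodes a receptor that binds FGFs but lacks the tyrosine kinase domain. It had 68 and 46 reads in proliferating cells and 47 and 37 in neurons. The CPM values of 5.57 and 6.21 lay above the neuron values of 3.94 and 3.76, with close replicates in each group. The proliferating level was 1.41 times the neuron level for replicate 1 (counting interval 0.96 to 2.10) and 1.65 times for replicate 2 (1.05 to 2.62). The log2 fold change of -0.61 (SE 0.49) did not pass the test (edgeR adjusted p 1.00). Beside the 14.5% of all tested genes with both neuron libraries below both proliferating ones, 12.9% had both above. Of the 8 genes tested here, Fgfr3 and Fgfrl1 lay below and Shc1 above, which is 2 and 1 of 8.

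**Figure D2:**
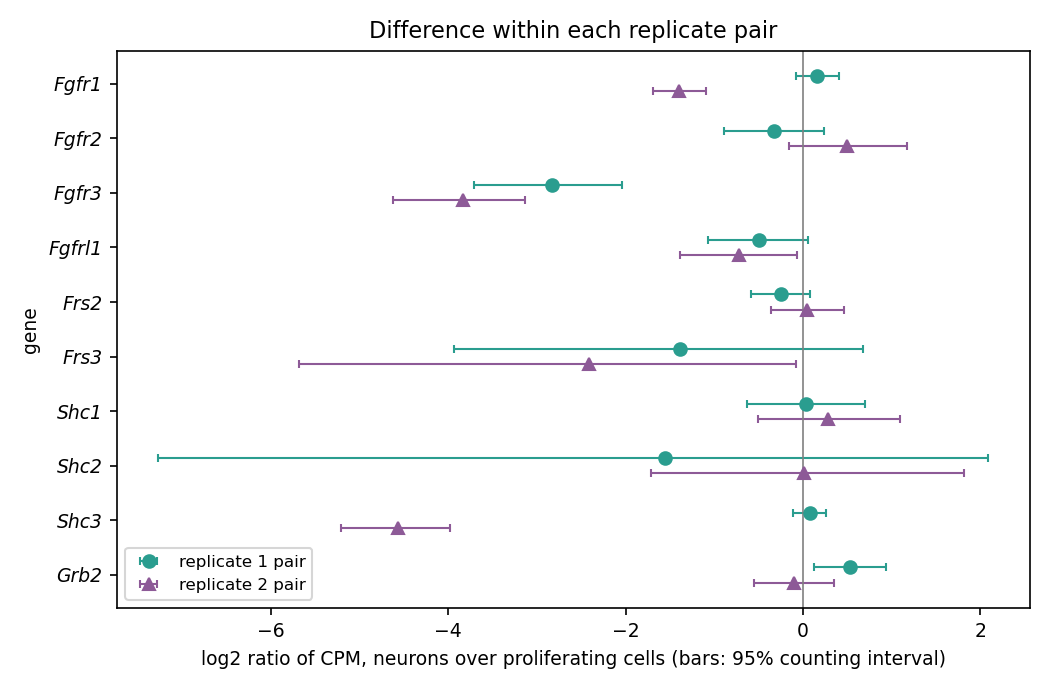
Log2 ratio of neurons over proliferating cells within each replicate pair, from TMM-scaled counts, with 95% counting intervals. Circles are the replicate 1 pair and triangles the replicate 2 pair. Fgfr3 is far below 0 in both pairs (-2.65 and -3.70), whereas Shc3 and Fgfr1 are near 0 in the replicate 1 pair and below 0 in the replicate 2 pair (-4.46 and -1.38).

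The receptors can be set against each other within a library, which removes the scaling between libraries. By deposited RPKM, Fgfr3 made up 14.4% and 24.1% of the summed level of Fgfr1 to Fgfr4 in proliferating replicates 1 and 2, and 2.18% and 4.38% in neuron replicates 1 and 2. The group means were 19.3% ± 6.83 (SD, n = 2) and 3.28% ± 1.55 (SD, n = 2), and the groups did not overlap. Fgfr1 held most of the total in every library, with 69.2%, 68.4%, 83.2% and 67.4% in the same order. Set against Fgfr1 in the same library, Fgfr3 RPKM was 0.208 and 0.352 times as high in proliferating cells and 0.0262 and 0.065 times in neurons. Fgfr2 held 16.4%, 7.50%, 14.1% and 27.4%, and those groups overlap. With 2 libraries per group, an exact permutation test of such a share has a smallest two-sided p of 0.33, so none was run. As plain reads, Fgfr3 was 24.7% of 441 receptor reads and 38.2% of 505 in proliferating cells, with Wilson 95% intervals of 20.9% to 28.9% and 34.1% to 42.5%. In neurons it was 4.18% of 359 reads (2.55% to 6.78%) and 8.22% of 219 (5.26% to 12.6%).

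The length behind the deposited RPKM matters for these shares. For Fgfr3 it is 28878 bases, against 4245 bases for its longest GENCODE transcript. Dividing the counts by the longest transcript instead gave Fgfr3 27.5% and 42% in proliferating cells, and 4.82% and 9.26% in neurons. The groups stayed apart on this scale too. Fgfr4, the receptor best known from liver, had 0 reads in both proliferating libraries, which allows a share of up to 0.68% and 0.594% of receptor reads, and 1 read in each neuron library.

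**Figure D3:**
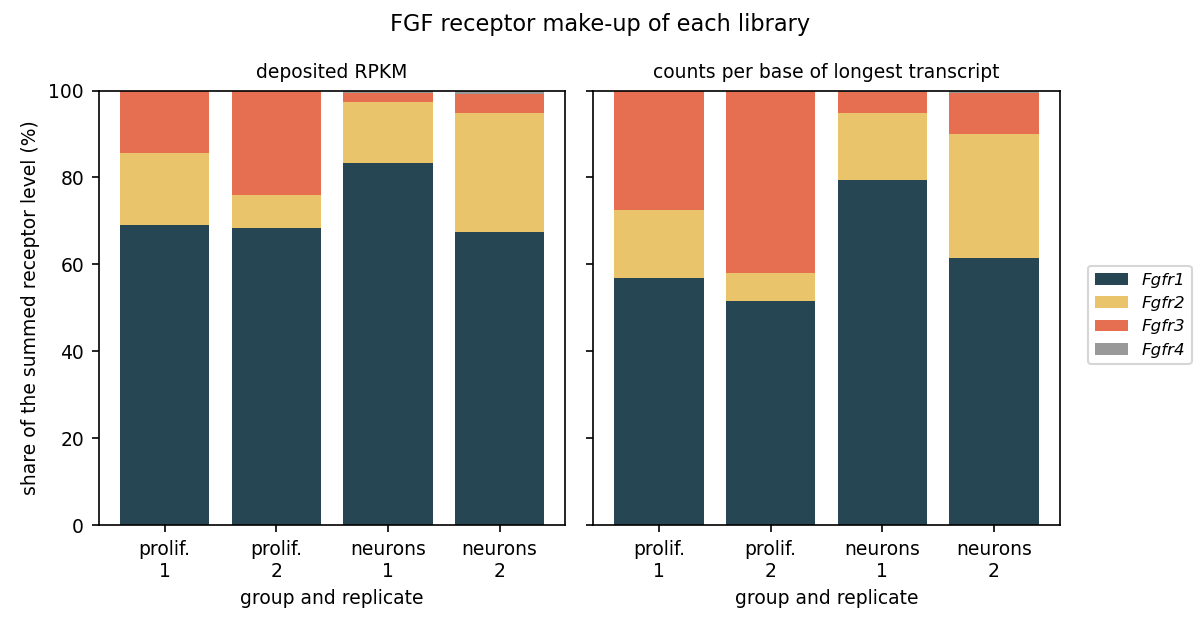
Share of each FGF receptor gene in the summed level of Fgfr1 to Fgfr4 in each of the 4 libraries, in percent, from deposited RPKM (left) and from counts per base of the longest transcript (right). Fgfr1 is the largest share in every library, and the Fgfr3 share is 14.4% and 24.1% in proliferating cells against 2.18% and 4.38% in neurons on the left.

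Frs2 (chr10:117070127-117148474), the main docking protein of FGF receptors, had overlapping levels in the groups. It had 167 and 88 reads in proliferating cells and 137 and 121 in neurons. The CPM was 13.7 and 11.9 against 11.5 and 12.3, with a log2 fold change of -0.10 (SE 0.46). The neuron to proliferating ratio was 0.84 (counting interval 0.665 to 1.06) in the replicate 1 pair and 1.04 (0.78 to 1.38) in the replicate 2 pair. Both intervals span 1.

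Frs3 (chr17:47687607-47704286), a related docking protein found mainly in neural tissue, had 8 reads in each proliferating library and 3 and 2 in the neuron libraries. It was too low for the test. The proliferating to neuron ratio was 2.60 in the replicate 1 pair, with a counting interval of 0.625 to 15.2, and 5.31 in the replicate 2 pair, with an interval of 1.06 to 51.3. Frs3 was thus near the detection limit in every library. Tomm6os, which shares 69 exon bases with Frs3 on the same strand, had 1 to 8 reads.

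Shc1 (chr3:89418551-89430029), the widely expressed SHC gene, had 40 and 23 reads in proliferating cells and 40 and 37 in neurons. Its CPM was 3.28 and 3.10 against 3.36 and 3.76, so neurons were slightly above in each library. The log2 fold change was 0.15 (SE 0.52), below 0 under total-count scaling and on the RPKM scale, and both pair intervals span 1 (0.644 to 1.63 and 0.701 to 2.14). Shc2 (chr10:79617934-79637918), an SHC gene of neural tissue, had 3 and 6 reads against 1 and 8. It was not tested, and at this depth no difference was detectable.

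Shc3 (chr13:51423389-51569451), the SHC gene best known from mature neurons, gave the least even result. It had 466 and 445 reads in proliferating replicates 1 and 2, 480 reads in neuron replicate 1, and only 25 in the other neuron library. The CPM was 38.2, 60.1, 40.3 and 2.54 in that order. So neuron replicate 1 was at the level of the proliferating cells and neuron replicate 2 alone was low, and the groups overlap. The replicate 1 pair gave a neuron to proliferating ratio of 1.05 (counting interval 0.926 to 1.20). In the replicate 2 pair the proliferating level was 23.6 times the neuron level (15.8 to 36.9). The fitted log2 fold change was -1.19 (SE 1.03), with an edgeR adjusted p of 1.00, and -2.11 (SE 1.02) with the replicate block, adjusted p 0.843. Leaving out neuron replicate 2 gave -0.29, whereas leaving out neuron replicate 1 gave -4.31, so the value rests on which neuron library is used.

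Neuron replicate 2 also had the lowest sum of the libraries in some other lists. Its summed CPM over 8 otic progenitor genes was 68.1, against 151.4 to 316.3 in the other libraries. Over 5 astrocyte and radial glia genes it was 17.7, against 67.9 to 158.8. A low progenitor sum is the direction of its label. Neuron replicate 1, at 163.7, lay between the proliferating libraries for the otic progenitor genes. Its CPM was 33.7 for Sox2 and 93.8 for Nes, against 29.7 and 75.2 in proliferating replicate 1. The part of these differences in the Shc3 and Fgfr1 values of neuron replicate 2 was not tested. Set against Shc1 in the same library, the Shc3 RPKM was 12.7, 21.1, 13.1 and 0.736 times as high, again with neuron replicate 2 apart.

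Grb2 (chr11:115644045-115708597), the adaptor on which the FRS2 and SHC routes converge, had 88 and 76 reads in proliferating cells and 124 and 94 in neurons. Its CPM was 7.21 and 10.3 against 10.4 and 9.56, and the groups overlap. The neuron to proliferating ratio was 1.44 (counting interval 1.09 to 1.92) in the replicate 1 pair and 0.931 (0.681 to 1.28) in the replicate 2 pair. The log2 fold change was 0.20 (SE 0.48).

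Ordered by deposited RPKM, averaged as shares of each library's total over the 10 genes, the order was Shc3, Frs2, Fgfr1, Grb2, Fgfrl1, Fgfr2, Shc1, Fgfr3, Shc2 and Frs3. Shc3 RPKM was 5.42 and 3.71 in proliferating cells and 4.38 and 0.149 in neurons, first in 3 libraries and behind 6 other genes in neuron replicate 2. Grb2 RPKM was 1.49 and 0.924 against 1.65 and 0.819, and Fgfrl1 RPKM 1.21 and 0.587 against 0.657 and 0.339. Grb2 exceeded Fgfrl1, Fgfrl1 exceeded Fgfr2, and Fgfr2 exceeded Shc1 in all 4 libraries. All other neighbours changed places in at least 1 library. For Shc1 and Fgfr3 the order turned with the group, with Fgfr3 above Shc1 in both proliferating libraries (0.507 and 0.644 against 0.427 and 0.176) and below it in both neuron libraries (0.0548 and 0.043 against 0.335 and 0.203). Frs2 RPKM was 3.95 and 1.49 in proliferating cells and 2.54 and 1.47 in neurons, and Fgfr1 RPKM was 2.43 and 1.83 against 2.09 and 0.662. Per base of the longest transcript Frs2 moved from the second to the fifth place. On that scale Shc1 also stood above Fgfr2 in proliferating replicate 2 and neuron replicate 1. The order of the 10 genes thus depends on the length used.

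Across the 8 genes tested, none passed the adjusted threshold. Only Fgfr3 was under an unadjusted 0.05 in the lower direction, where 2.51% of all tested genes were, and the same held with the replicate block, where 3.48% were. Fgfr3 and Fgfrl1 were lower in neurons in both pairs, 2 of 8 against 25.5% of all genes, so this count is that of the background. Fgfr3 was the only one of the 8 with at least 2-fold lower levels in both pairs, against 2.43% of all genes. The median log2 fold change of the 8 was -0.36, against 0.02 over all tested genes. In 5 of the 8 the pairs had opposite signs.

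The genes around the receptors and adaptors were described by lists. Of 103 other pathway genes, 71 were tested and none was called by edgeR with or without the block, and 1 was higher and 7 lower at an unadjusted 0.05, where 0.915% and 2.51% of all tested genes were. None of the 18 FGF ligand genes passed the filter. Their summed reads were 31 and 17 in proliferating cells and 28 and 19 in neurons, 7 had no read in any library, and Fgf2, which encodes bFGF itself, had 8, 3, 4 and 1. Transcripts of FGF ligands were thus near the detection limit in every library, while the proliferating cells received bFGF from the medium. Fgf21, a hormone-like FGF with the highest RPKM of that list, had 0, 0, 4 and 1 reads. Among co-receptor and binding genes 4 of 8 were tested, all with a positive log2 fold change (median 1.23), yet the median of the replicate 1 pair was -0.36. Fgfbp3, which encodes an FGF carrier protein, had 14 and 4 against 6 and 4 reads.

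The other docking and adaptor genes showed a median log2 fold change of -0.09 over 15 tested, 5 positive and 10 negative. Irs2, the insulin receptor docking gene, had 212 and 205 reads in proliferating cells and 166 and 110 in neurons. In the Ras-MAPK relay the median was 0.10 over 19 genes, 11 positive and 8 negative, with a range from -1.30 to 0.48. Nras, a RAS gene, had 3068, 290, 651 and 626 reads, with proliferating replicate 1 far above the other libraries and the pairs in opposite directions (-2.20 and 0.70). The PI3-kinase, phospholipase C and STAT genes had a median of 0.04 over 11, and Plcg1, the phospholipase that FGF receptors phosphorylate directly, had 288 and 289 against 248 and 304 reads. The relay genes below the receptors thus centred near 0, as all tested genes did.

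The list of genes known to respond to FGF signalling had the lowest median of these lists, -2.07 over 11 tested, with 9 negative and 5 lower at an unadjusted 0.05 (2.51% of all tested genes). The astrocyte and radial glia genes had a median of -2.57 over 4 tested in the same comparison, and their part in this list's values was not tested. The replicate 1 pair had a median of -0.70 and the replicate 2 pair one of -3.78. In 5 of the 11 genes the pairs had opposite signs, and 6 were lower in neurons in both pairs, against 25.5% of all tested genes. The summed CPM was 136.1 and 342.6 in proliferating cells and 154.3 and 38.3 in neurons, so the groups overlap and neuron replicate 2 was the lowest. Dusp6, a phosphatase that switches off ERK, had 87 and 274 reads against 37 and 3. Its log2 fold change was -3.65 (SE 1.13) with an edgeR adjusted p of 0.9998. Etv4, an ETS factor, had 48 and 39 reads against 10 and 2, a log2 fold change of -3.07 (SE 0.78) with an edgeR adjusted p of 0.852. Etv4 and Dusp6 are named because they were at least 2-fold lower in both pairs, so their separation by group follows largely from that choice. Of the 11 genes 6 had each neuron library below each proliferating library, against 14.5% of all tested genes. DESeq2 called 4 of the pathway genes lower and edgeR without the filter 7, Dusp6 among them in each, where 0.308% and 0.472% of all genes were called lower.

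**Figure D4:**
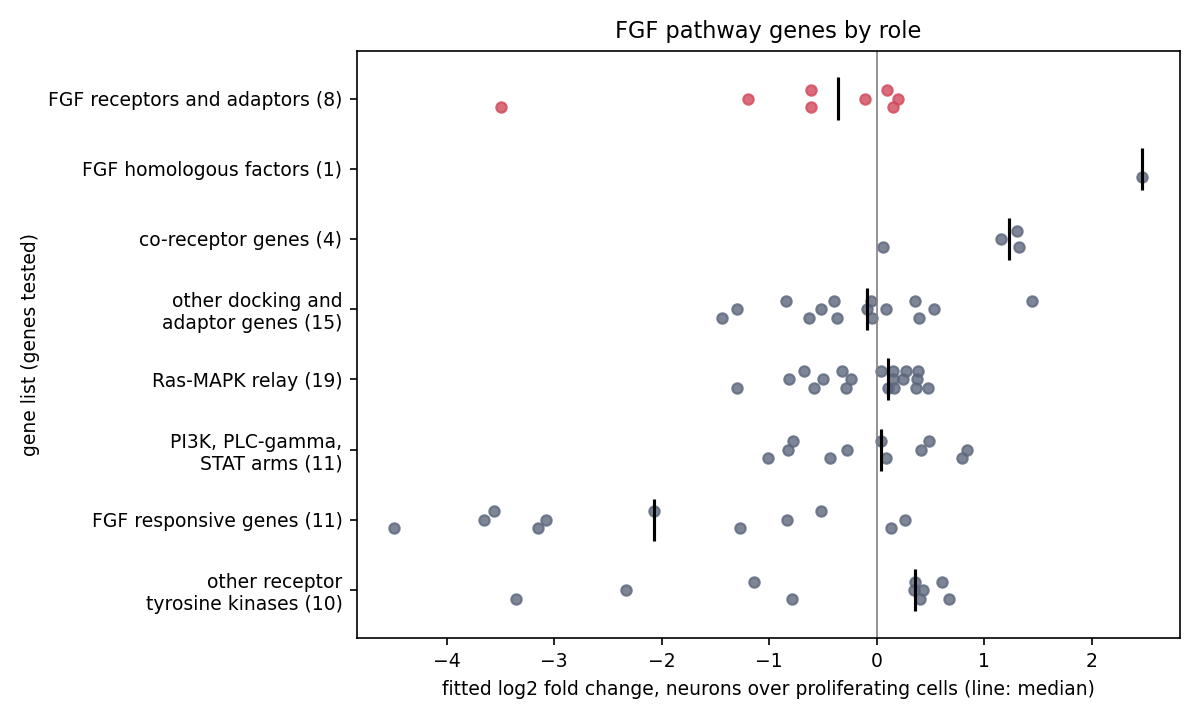
Fitted log2 fold change, neurons over proliferating, of each tested gene by list, with a line at the list median. The 8 tested receptor and adaptor genes are in red, with Fgfr3 lowest at -3.49, and the list of genes that respond to FGF has the lowest median (-2.07). No point passed the adjusted threshold.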

How the data were processed

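Levels of the 10 genes and the lists of related genes were compared between 2 proliferating and 2 neuron libraries. The members and lists were chosen with earlier results of these data known. For each library the authors deposited read counts by gene, not normalized, with an RPKM column beside them. Per the submitters' processing notes, the build was mm10 and HISAT2, SAMtools, featureCounts, DESeq2 and deepTools 3.4.3 were used; their settings, the annotation, the use of strand and the treatment of reads that match several places are not given in the sources used here. Per the labels' protocols, ribosomal RNA was depleted and a stranded kit was used, with paired reads.

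Counts were tested with edgeR 4.0.16 in R 4.3.3 (filterByExpr with a minimum count of 10 and a total of 15, TMM scaling, quasi-likelihood test, group as the single term), which kept 12783 genes. P-values were adjusted by Benjamini-Hochberg over all of them, with a threshold of 0.05. The biological coefficient of variation was 0.456, so at this spread only large differences can pass. Same-numbered libraries share a number, and those of replicate 2 the words "set 2"; their deviations from the group means correlated at r = 0.33, and with 2 pairs the labels do not settle that they are pairs. Alternatives were the replicate block, DESeq2 1.42.0, limma 3.58.1 on log2(RPKM + 1) and log2(RPKM + 0.1), total-count scaling, other filters and leaving out each library. Counting intervals within a pair are exact binomial (95%). All 10 genes are named; of the lists, genes called, those at least 2-fold apart the same way in both pairs, and the gene of highest RPKM per list. Coordinates and promoter letters come from RefSeq GRCm38.p6, a patch release of the mm10 assembly, and exon overlaps from GENCODE M21. All 49997 symbols matched the RefSeq table. Some marker genes are not reported here.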

Additional observations from a re-analysis of the deposited data

How the results depend on the processing

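With the replicate number as a block, edgeR called 3 genes lower in the whole table and none of the 10 genes, so the block changed none of their calls; Fgfr3 had a log2 fold change of -3.33. Called lower genes numbered 43 with DESeq2 (which gave no adjusted p to 11917 genes), 122 without the filter, 2 with total-count scaling, 2 on log2(RPKM + 0.1) and 1 on log2(RPKM + 1), against 0; called higher genes numbered 11 with DESeq2 and 41 without the filter. Of the 10 genes 1, Fgfr3, was called lower with DESeq2 and without the filter, and of the other pathway genes 4 and 7. Of 104 gene-level alternatives, 91 kept direction and side of the threshold and 10 changed sign. The other 3 were all Fgfr3, with DESeq2, without the filter and without proliferating replicate 1. The last of these leaves 1 library in a group, and the share of all genes it calls was not counted, so it is not read as a call. Fgfr2 was -0.32 with total-count scaling, -0.14 on log2(RPKM + 0.1) and -0.0699 on log2(RPKM + 1), and -0.17 to 0.28 when each library was left out. Shc1 was -0.16, -0.0704 and -0.0314 under the same 3 settings. Grb2 was -0.0089 on log2(RPKM + 0.1) and -0.0631 to 0.47 without each library. Genes with a positive value numbered 1, 0 and 1 of 8 under total-count scaling, log2(RPKM + 0.1) and log2(RPKM + 1), against 3; these settings shift the median of all genes by -0.29, -0.17 and -0.09. Fgfr3 was -2.17 on log2(RPKM + 0.1) and -0.59 on log2(RPKM + 1), against -3.49. Leaving out each library gave Fgfr3 -4.10 to -2.53, Fgfr1 -1.09 to -0.17 and Shc3 -4.31 to -0.29; the lone library left in an arm is assumed to vary like the others. The mean Fgfr1 share in proliferating cells was 54.3% per longest transcript and 58.2% as reads, and that of Fgfr3 34.8% and 31.5%, with 7.04% and 6.20% in neurons. Depth limits Frs3 and Shc2, at 1 to 8 reads, most.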

Other observations

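Other receptor tyrosine kinases that use SHC or GRB2 included genes with large differences. Ntrk2, the receptor for BDNF, had 890 and 241 reads in proliferating replicates 1 and 2, and 49 and 61 in neuron replicates 1 and 2. Its log2 fold change was -3.36 (SE 0.60), with an edgeR adjusted p of 0.769. Egfr, the epidermal growth factor receptor, had 277 and 261 reads against 71 and 54, a log2 fold change of -2.33 (SE 0.50) with an edgeR adjusted p of 0.775. Both are named because they were at least 2-fold lower in both pairs, so their separation by group follows largely from that choice. Of the list's 10 tested genes 4 had each neuron library below each proliferating library, against 14.5% of all tested genes. The list's median over the 10 was 0.35. DESeq2 called both lower, with adjusted p-values of 6.58e-05 for Ntrk2 and 0.0206 for Egfr, where it called 0.308% of genes lower.

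The intracellular FGF homologous factors, which share the FGF fold but act on sodium channels inside the cell and not on FGF receptors, were low in all libraries. Fgf11 had 4 and 1 reads in proliferating cells and 12 and 18 in neurons, with a log2 fold change of 2.47 (SE 1.03) that did not pass the adjusted threshold. Fgf13 had 1 and 3 reads against 7 and 20, and was not tested. Both are named because they were at least 2-fold higher in both pairs, so their separation by group follows largely from that choice. Fgf11 also passed the count filter only through its neuron libraries. Fgf12 went the other way in reads, with 34 and 4 against 0 and 2.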
